A study of Mus musculus with 2 samples.

Results

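The amino acid transporter genes of small mouse oocytes are described here, 63 of the 53832 genes in the deposited table. They were taken by symbol, as the genes of the Slc1, Slc3, Slc6, Slc7, Slc36, Slc38 and Slc43 families, and 4 symbols of opposite-strand genes that carry such a family name were left out. The rule uses symbols alone and no measured value. Polyadenylated RNA had been sequenced in 2 libraries of the same group, called replicates 1 and 2 here. Ovaries from female mouse embryos had been cultured under 33.3 kPa, and oocytes were collected from them by flow sorting for a CFP reporter of the germline gene Stella, also called Dppa3. The age of the embryos in days is not stated in the labels. No unpressurised group was analysed here, so no value below is an effect of pressure. The study's title concerns mechanical stress and the dormancy of oocytes.

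Amino acid transporters are membrane proteins that bring amino acids into the cell, exchange one amino acid for another, or release them from the lysosome. Slc1, Slc6 and most Slc38 proteins are driven by sodium. Slc7 proteins are either cationic amino acid carriers or light chains, which reach the surface only when bound to a heavy chain of the Slc3 family. Glycine taken up through the GLYT1 transporter, encoded by Slc6a9, is known as an osmolyte that sets cell volume in oocytes. Whether the small oocytes described here take it up was not tested. Oocytes receive other amino acids from the surrounding somatic cells through gap junctions. Not every gene of these families carries amino acids: Slc6a2, Slc6a3 and Slc6a4 carry monoamines, Slc6a8 carries creatine and Slc43a3 carries purine nucleobases.

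The libraries held 5019462 and 5274338 expected counts. All 12 germ cell markers were expressed, meaning a TPM (a level scaled to library size and gene length) of at least 1 in both libraries. Of 39 markers of granulosa, stroma, endothelium, surface epithelium, immune and erythroid cells, 8 were expressed, and all 39 together held 0.00482% and 0.00398% of the counts. The 8 were Kitl and Nr5a2 of granulosa cells, Col1a1 and Dcn of stroma, Pecam1 of endothelium, Lgals7 and Krt8 of surface epithelium and Hbb-bs of erythroid cells, with a mean TPM from 1.76 for Dcn to 14.7 for Lgals7. Of the 11 with no count, 4 were immune, 3 erythroid and 2 endothelial genes. Only 1 of 10 granulosa genes, Fshr, and 1 of 7 stroma genes, Tcf21, had none. The part of other cells in the transporter levels was not tested. Values below are given for replicates 1 and 2 in that order, or as mean ± SD with n = 2. Nothing in the labels says that the libraries came from separate cultures or animals, so the spread between them may be technical.

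Of the 63 transporter genes, 24 were expressed, or 38.1%, against 53.5% of 21722 protein-coding genes and 25.6% of all genes in the table. A mean TPM of 10 or more was reached by 15, or 23.8%, against 38.9% of protein-coding genes. No count in either library was found for 19, or 30.2%, against 29.3% of protein-coding genes, and 6 had counts in 1 library only. In bulk RNA, fewer cells expressing a gene and less RNA per cell cannot be told apart. The median of log2(TPM + 1) over all members was 0.45 in replicate 1 and 0.72 in replicate 2, below the 1.81 and 1.83 of protein-coding genes. Among expressed genes, the median TPM was 17.1 for the members and 24.2 for protein-coding genes.

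All members together held 6424 counts in replicate 1, which is 0.128% of that library (exact Clopper-Pearson 95% interval 0.125 to 0.131%), and 7307 counts in replicate 2, which is 0.139% (0.135 to 0.142%). Intervals cover counting error only, since PCR copies of a molecule are not independent. A few genes made up most of the transporter RNA. The 5 highest members in each library held 58.4% and 58.1% of the summed TPM of all members, and the 2 highest held 34.9% and 34.3%. Slc6a9 and Slc7a5 led, followed by Slc36a1, Slc38a10 and Slc7a2. The library values of Slc6a9 overlapped with those of Slc7a5, although Slc6a9 was higher in each library. Below them Slc36a1, Slc38a10, Slc7a2, Slc36a4 and Slc3a2 followed in that order with no overlap of the library values of neighbours, though by less than 1 TPM between Slc36a1 and Slc38a10, between Slc36a4 and Slc3a2, and between Slc3a2 and Slc6a20a. This order belongs to TPM over merged exons. With the longest transcript as length, Slc38a10 at 55.7 stood above Slc36a1 at 48.3, and Slc3a2 at 30.5 above Slc36a4 at 26.5. By CPM, Slc7a2 at 133 and Slc38a1 at 126 stood above both Slc36a1 and Slc38a10 at 112. Slc6a20a, Slc38a7 and Slc6a20b overlapped with each other. Slc6a20b, at 29.7 in replicate 2, also overlapped with Slc3a2, at 29.5 in that library. In the run of Slc38a1, Slc38a8, Slc7a11, Slc6a7 and Slc38a2 each gene overlapped with the next.

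**Figure D1:**
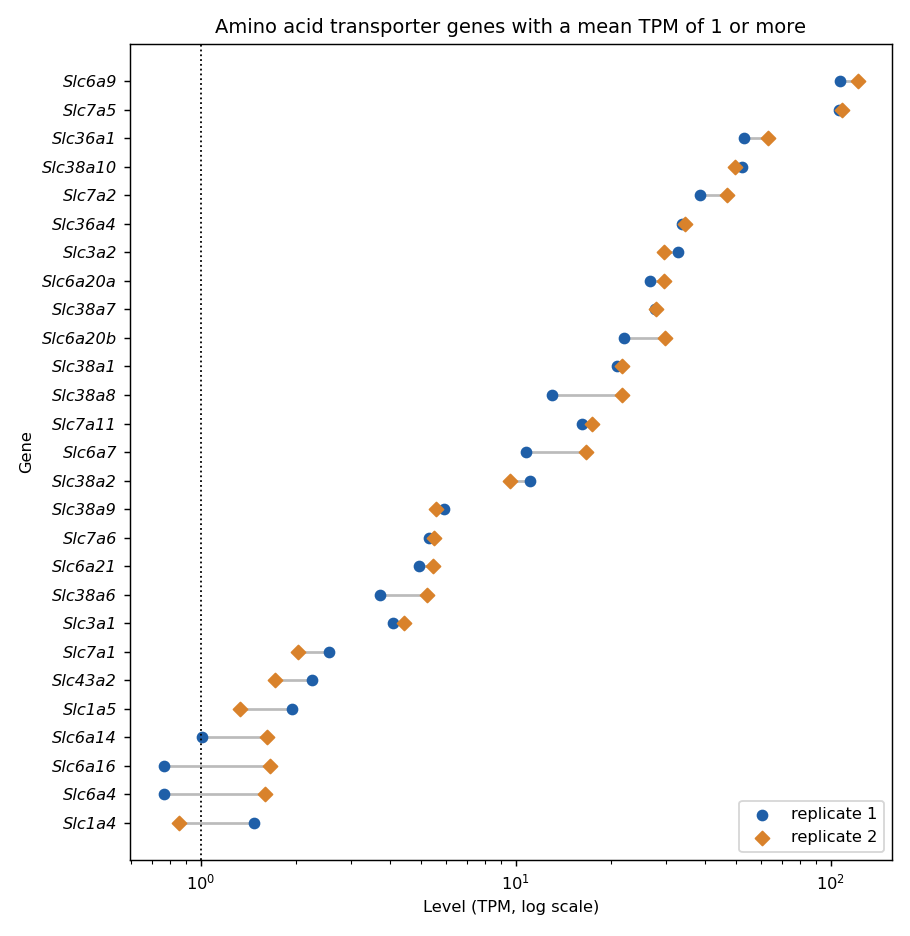
Level of each transporter gene with a mean TPM of at least 1, on a log axis; circles are replicate 1, diamonds replicate 2, and the dotted line marks a TPM of 1. The genes run from Slc6a9 and Slc7a5, both above 100 in each library, to Slc6a16, Slc6a4 and Slc1a4, which each lie below 1 in 1 library.

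The families differed in how many of their genes were expressed. In Slc38, 7 of 11 genes were expressed and 5 had a mean TPM of 10 or more. In Slc36 it was 2 of 4, both above 10. In Slc7 it was 5 of 15 with 3 above 10, and in Slc6 it was 6 of 21 with 4 above 10. Both Slc3 genes were expressed. Slc1 and Slc43 stood at the low end, with 1 of 7 and 1 of 3 genes expressed and none at 10. The summed TPM of the Slc6 genes was 175 and 211, that of Slc7 170 and 182, that of Slc38 135 and 142 and that of Slc36 87.0 and 97.4, while all 7 Slc1 genes together reached 3.65 and 3.60.

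**Figure D2:**
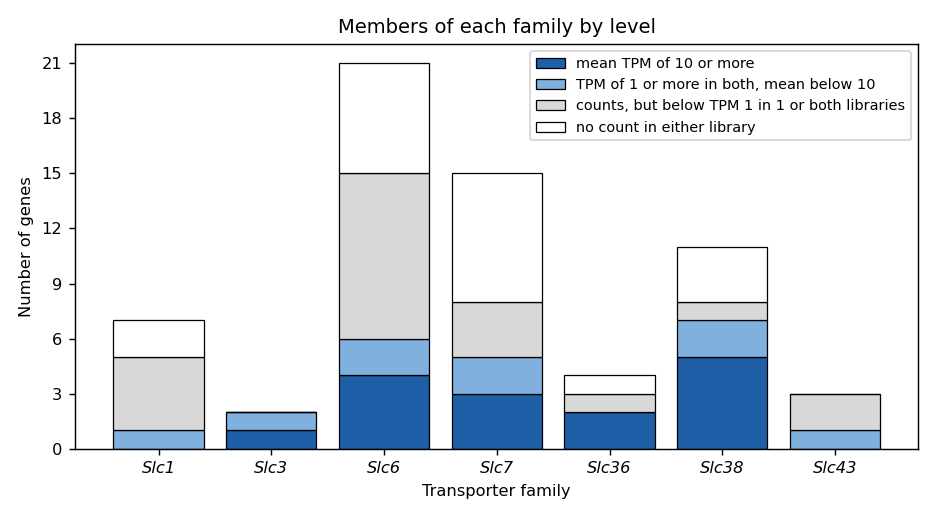
Number of genes in each transporter family by level, from a mean TPM of at least 10 (dark blue) to no count in either library (white). Slc38 has 7 of 11 genes expressed and Slc1 has 1 of 7.

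Sodium- and chloride-coupled carriers of the Slc6 family come first. Slc6a9 (ENSMUSG00000028542, GRCm38 chromosome 4, 117834506 to 117875198, plus strand), the glycine transporter GLYT1, had 946.94 and 1123.58 counts and a TPM of 107 and 122. It had the highest mean of all members by TPM and also by CPM (counts scaled to library size only, with no length). Slc6a5, the glycine transporter GLYT2 of inhibitory neurons, had 3 and 1 counts. Of the glycine-specific pair, Slc6a9 thus held nearly all counts in both libraries. Its exons share 1429 bases with those of Ccdc24 on the opposite strand, a gene with 47.57 and 63.46 counts, and 46 bases with those of B4galt2, also on the opposite strand, with 1163.43 and 1298.54 counts. The libraries are strand-specific, but whether the counting used strand is not stated in the labels.

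The mouse has neighbouring copies, Slc6a20a and Slc6a20b, of the gene named for the proline and betaine transporter SIT1. Which substrates the protein of each copy carries was not tested. Slc6a20a (ENSMUSG00000036814, chromosome 9, 123634770 to 123678885, minus strand) had 188.34 and 216.26 counts and a TPM of 26.7 and 29.5. Slc6a20b (ENSMUSG00000025243, chromosome 9, 123590800 to 123632565, minus strand) had 324.66 and 454.74 counts and a TPM of 22.0 and 29.7. By this measure the copies stood at overlapping levels, which depends on the merged exon lengths of 4084 and 8538 bases. By CPM the means of Slc6a20a and Slc6a20b were 39.3 and 75.4. With the longest transcript as length they were 23.0 and 27.3 TPM. They lie 2204 bases apart, and their coding sequences, 1776 and 1905 bases long, were identical at 91.4% of 1776 aligned bases with 1 identical run of 321 bases. The start of the aligned coding sequence is shown because reads are divided between the copies on such differences. It is read 5′ to 3′ from the GENCODE transcripts on GRCm38, minus strand, with the 25 of 150 bases that differ in capitals. The stretches span several exons, within chr9:123664665-123678806 for Slc6a20a and chr9:123612101-123632230 for Slc6a20b.
Slc6a20a: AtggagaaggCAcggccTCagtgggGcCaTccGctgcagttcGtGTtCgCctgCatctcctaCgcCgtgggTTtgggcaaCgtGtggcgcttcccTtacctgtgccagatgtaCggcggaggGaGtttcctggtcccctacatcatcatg
Slc6a20b: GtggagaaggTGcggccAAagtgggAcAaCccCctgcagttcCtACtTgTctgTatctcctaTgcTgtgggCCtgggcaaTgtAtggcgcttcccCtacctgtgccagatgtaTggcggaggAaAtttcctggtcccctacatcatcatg
Of the 50-base words in the transcripts of Slc6a20a, 15.3% also occur in Slc6a20b, and 7.24% of those of Slc6a20b occur in Slc6a20a. Each copy had fractional counts, which summed to 513 and 671 over the pair. The sum does not depend on how shared reads were divided, whereas the level of each copy does. Slc6a20b also shares 1800 exonic bases with Sacm1l on the opposite strand, a gene with 384 counts in each library. Slc6a20a shares 563 with Gm17120 on the opposite strand, which had 77 and 95 counts, and 22 each with Ccr9 and Gm17200.

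The copies also differ in front of the gene. The RefSeq promoters (GRCm38.p6, minus strand, 250 bases before and 50 after the annotated start) are shown. By TPM over merged exons, though not by CPM, both genes stood at like levels. The dinucleotide CG, in capitals, occurs 25 times at chr9:123678783-123679082 for Slc6a20a and 1 time at chr9:123632489-123632788 for Slc6a20b.
Slc6a20a: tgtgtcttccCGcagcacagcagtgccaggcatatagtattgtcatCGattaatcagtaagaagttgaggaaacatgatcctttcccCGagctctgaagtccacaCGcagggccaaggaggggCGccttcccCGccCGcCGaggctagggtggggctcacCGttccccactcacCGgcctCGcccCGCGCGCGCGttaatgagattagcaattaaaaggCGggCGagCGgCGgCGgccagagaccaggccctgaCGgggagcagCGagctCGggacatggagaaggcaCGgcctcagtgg
Slc6a20b: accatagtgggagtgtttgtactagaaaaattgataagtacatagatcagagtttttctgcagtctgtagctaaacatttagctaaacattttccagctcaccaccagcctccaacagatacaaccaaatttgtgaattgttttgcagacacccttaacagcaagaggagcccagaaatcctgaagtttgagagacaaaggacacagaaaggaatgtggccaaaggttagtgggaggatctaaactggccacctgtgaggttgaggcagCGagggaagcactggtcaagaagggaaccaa
The median over 27025 genes with such a promoter was 7. A gene-level count does not show which start site the oocytes used.

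Slc6a7, a proline transporter known from neurons, had 64 and 103 counts and a TPM of 10.8 and 16.7. Slc6a21 stood lower, at 4.93 and 5.47, and Slc6a14, a carrier of neutral and cationic amino acids, at 1.01 and 1.62. The last is the lowest expressed member and is just above the threshold. The taurine transporter gene Slc6a6, at 0.548 and 0.988, and Slc7a4, at 0.558 and 0.671, were the nearest below it by mean. Slc6a16 and the serotonin transporter gene Slc6a4 passed a TPM of 1 in replicate 2 only, with 4 and 9 and with 6 and 13 counts. The creatine transporter gene Slc6a8 had 5 counts in each library. The dopamine transporter gene Slc6a3 had 2 and 4, the neutral amino acid transporter gene Slc6a19 had 1 and 6, Slc6a15 had 0 and 2, and Slc6a11 had 0 and 1. Slc6a12, Slc6a13, Slc6a17, Slc6a18 and Slc6a2 had 0.

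Heteromeric transporters were led by Slc7a5 (ENSMUSG00000040010, chromosome 8, 121881150 to 121907694, minus strand), the light chain LAT1 that exchanges large neutral amino acids such as leucine. It had 682 and 722 counts and a TPM of 106 and 109. Slc7a11, the light chain xCT that imports cystine for glutamate, stood at 16.2 and 17.4 and Slc7a6, a light chain for cationic and neutral amino acids, at 5.32 and 5.49. Slc7a5 was 6.58 and 6.23 times as high as Slc7a11 by TPM. Other light chains were near the floor, the level that 3 counts would give. Slc7a7 had 3 counts in each library and Slc7a8, a light chain for the same kind of substrates as Slc7a5, had 0 and 5. Slc7a10, Slc7a9, Slc7a12, Slc7a13 and Slc7a15 had 0 counts, and for the 19 members with no counts the floor lay at most at a TPM of 0.998 and 0.960.

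The common heavy chain gene Slc3a2 (ENSMUSG00000010095, chromosome 19, 8706882 to 8723369, minus strand), which encodes 4F2hc, had 200 and 187 counts and a TPM of 32.8 and 29.5. This lay below Slc7a5 and above each of the other light chains. The 6 light chains known to pair with it summed to 129 and 132, which is 3.92 and 4.49 times the level of Slc3a2, a log2 difference of heavy minus light of -2.07 ± 0.14. The sum was higher than Slc3a2 in both libraries. The SD covers the spread between these libraries only and not the length taken. With the longest transcript as length the difference was -1.91, and by CPM it was -2.59. The difference compares RNA levels and does not give the ratio of the proteins. The other heavy chain gene, Slc3a1, stood at 4.08 and 4.42 from 16 and 18 counts, while its light chain partners Slc7a9 and Slc7a13 had 0. Slc3a1 shares 601 exonic bases with Prepl on the opposite strand, which had 244 and 282 counts.

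**Figure D3:**
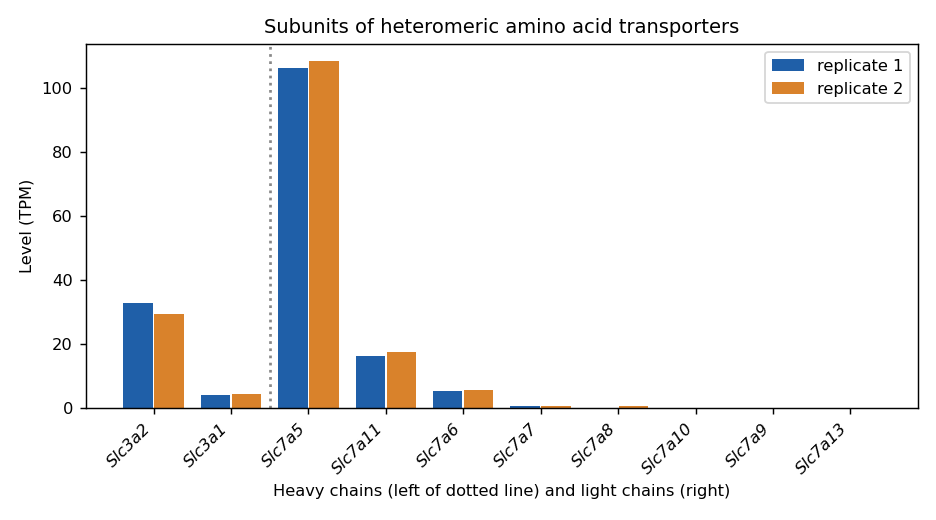
TPM of heavy chain genes and light chain genes in each library. Slc7a5 stands at 106 and 109, above Slc3a2 at 32.8 and 29.5, and most other light chains are near 0.

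The promoter of Slc7a11 is shown because it carries the letters of the amino acid response element, a sequence bound by ATF4, the factor that switches on transporter and synthesis genes when amino acids are short. TGATGNAA, with N for any base, was searched on both strands of each RefSeq promoter, and its matches are in capitals (chr3:50443564-50443863, GRCm38.p6, minus strand).
Slc7a11: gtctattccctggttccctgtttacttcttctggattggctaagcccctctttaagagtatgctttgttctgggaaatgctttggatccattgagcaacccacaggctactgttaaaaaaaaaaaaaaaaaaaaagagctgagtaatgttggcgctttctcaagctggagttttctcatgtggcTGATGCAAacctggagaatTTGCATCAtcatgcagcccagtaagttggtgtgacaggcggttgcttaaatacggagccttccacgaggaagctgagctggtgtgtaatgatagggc
The first match, TGATGCAA, begins 66 bases before the annotated start and the second, TTGCATCA on the other strand, 47 bases before it, without overlap. A match occurred in 4.51% of the 27025 genes with a promoter, and at least 2 matches in 1 promoter occurred in 23 of them, or 0.0851%. Promoters were found for 45 of the 63 members, or 71.4%, too few for a statement on the members as a set. Of these 45, 4 had a match: Slc7a11 with 2 matches, Slc7a7 with up to 2, depending on the annotated start, and Slc1a4 and Slc6a21 with 1. These genes stood at different levels, from 17.4 for Slc7a11 to 0.504 for Slc7a7 in replicate 2, and a match does not show that a factor was bound.

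Among cationic carriers the order of the paralogues was clear. Slc7a2 (ENSMUSG00000031596, chromosome 8, 40862396 to 40922308, plus strand), the arginine and lysine transporter CAT2, had 608 and 765 counts and a TPM of 38.5 and 46.7. Slc7a1, its widely expressed relative CAT1, had 51 and 42 counts and a TPM of 2.56 and 2.03. Slc7a2 was thus 15.0 and 23.0 times as high as Slc7a1, or 4.22 ± 0.43 on the log2 scale. Slc7a3, the carrier CAT3, and Slc7a14 had 0 counts, and Slc7a4 had 4 and 5.

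Of the Slc36 genes, Slc36a1 and Slc36a4 made up nearly all the RNA. Slc36a1 (ENSMUSG00000020261, chromosome 11, 55204350 to 55236330, plus strand) encodes PAT1, which moves glycine, alanine and proline together with protons, at the lysosome among other places. It had 513.96 and 637 counts and a TPM of 52.9 and 63.1. Slc36a4, a carrier of proline and tryptophan, stood at 33.7 and 34.3, below Slc36a1 in both libraries. Slc36a2, next to Slc36a1 and with reads in common, had 2.04 and 0 counts, and Slc36a3 had 0.

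Sodium-coupled neutral amino acid transporters of the Slc38 family were the family with most genes at 10 or more. Slc38a10, a less studied member, stood at 52.1 and 49.7. Slc38a7, a carrier of glutamine out of lysosomes, stood at 27.7 and 27.8, and Slc38a1, a glutamine importer of the cell surface, at 20.9 and 21.7. The level of Slc38a1 depends on the length taken for it: the merged exons are 17236 bases long and the longest transcript 7266, and with the latter its mean TPM was 39.4 in place of 21.3. Slc38a8 stood at 13.1 and 21.7 from 79 and 136 counts. Slc38a2, a transporter that cells induce when amino acids are short or the medium is hypertonic, stood at 11.1 and 9.58. Slc38a1 was 1.89 and 2.26 times as high as Slc38a2.

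Slc38a9, the arginine sensor of the lysosome that acts on mTORC1, stood at 5.93 and 5.57 from 171 and 167 counts. Slc38a6 stood at 3.72 and 5.23. For Slc38a6, 22.8% of the 50-base words of its transcripts also occur in other genes, though its counts of 50 and 73 were whole. Slc38a3, known as the transporter by which cumulus cells take up amino acids for the oocyte, had 0 counts in replicates 1 and 2. Taken as 3 counts, the upper limit that a count of 0 leaves is 0.598 and 0.569 CPM. Slc38a5 and Slc38a11 had 0 as well, and Slc38a4 had 1 and 2.

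The Slc1 and Slc43 genes were low. Slc1a5, the glutamine exchanger ASCT2, stood at 1.94 and 1.34 from 14 and 10 counts, and Slc1a4, its relative ASCT1, at 1.47 and 0.852. Carriers of glutamate and aspartate had at most 5 counts in a library: Slc1a1 had 2 and 5, Slc1a6 had 0 and 4, Slc1a2 had 2 and 1, and Slc1a3 and Slc1a7 had 0. No member of this group was expressed. Slc43a2, the uniporter LAT4 for large neutral amino acids, stood at 2.25 and 1.72, while Slc43a1 had 2 and 1 counts and Slc43a3 had 2 and 0.

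Many members lie beside another member on the chromosome. With a gap of at most 400 kb, 23 genes formed 13 neighbouring pairs in 10 groups. In 2 pairs both genes were expressed, in 3 pairs 1 gene was, and in 8 pairs neither was. On chromosome 15, Slc38a1 and Slc38a2 lie 44478 bases apart and both were expressed, whereas Slc38a4, 295089 bases from Slc38a2, was near 0. On chromosome 11, Slc36a1 was high and Slc36a2, 19272 bases away, was not expressed. On chromosome 7, Slc6a21 stood at 5.20 ± 0.38 and Slc6a16, 4145 bases away, at 1.21 ± 0.63. In these groups, genes beside an expressed member thus stood at both high and low levels. Of all members 38.1% were expressed, and whether the split of the pairs departs from that share was not tested.

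**Figure D4:**
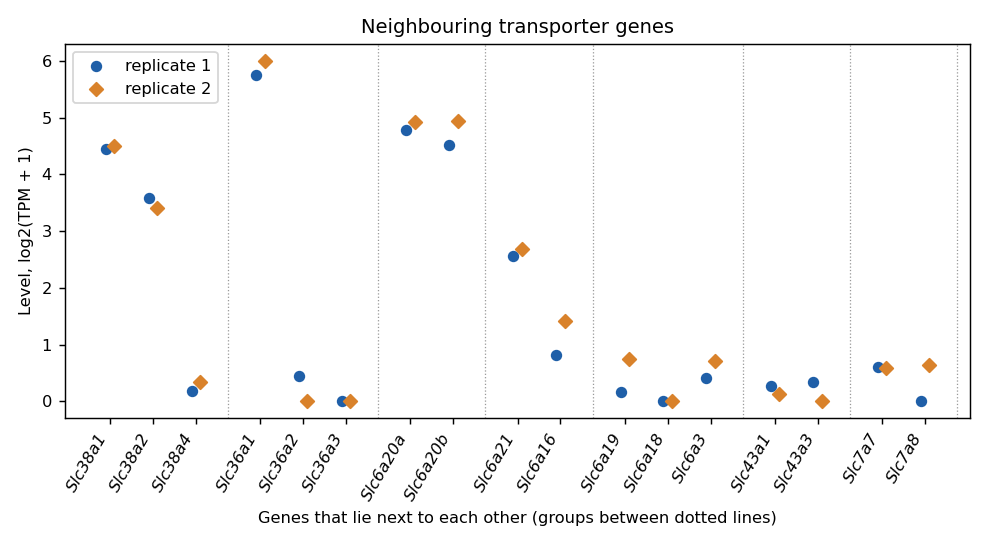
Level on the log2(TPM + 1) scale of neighbouring transporter genes in both libraries, for 7 of the 10 groups; the other 3 groups, with at most 1 count, are not drawn. Slc6a20a and Slc6a20b stand at like levels, while Slc36a1 and Slc36a2 do not.

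The last comparison sets the libraries against each other. Both have the same treatment, so a difference is one between these libraries and not between conditions. Of the 63 members, 22 had enough counts to be tested among 12182 genes. The exact binomial test used was two-sided, allows for counting noise only, and was adjusted over all genes tested by the Benjamini-Hochberg method. No member passed it at a ratio of 2-fold or more, against 0.673% of all genes tested. Without the fold limit 3 members passed, all higher in replicate 2, against 4.24% of all genes in that direction, 3.59% in the other and 7.83% in either. At an unadjusted p under 0.05 there were 6 members, all higher in replicate 2, or 27.3% of those tested, against 20.7% of all genes in either direction. Of the 22, 15 were higher in replicate 2 and the median log2 ratio was 0.066, against 0.00013 over all genes. The libraries also differed in germ cell markers. In the exact binomial test 5 of the 12 markers were higher in replicate 2 and 1, Dazl, was lower. The log2 ratio was 0.49 for Zp2 (adjusted p = 6.12e-134), 0.39 for Zp3 (adjusted p = 4.45e-27) and 0.36 for Gdf9 (adjusted p = 3.14e-09). For Dazl it was -0.17 (adjusted p = 0.0125). Whether the transporter ratios go with those of the markers was not tested.

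The log2 ratio of Slc38a8 was 0.71 (counting SE 0.20, adjusted p = 0.00979, exact binomial test), higher in replicate 2. Slc6a20b was higher by 0.42 (SE 0.10, adjusted p = 0.00265, exact binomial test), and the sum of Slc6a20a and Slc6a20b by 0.32 (SE 0.085). Slc7a2 was higher by 0.26 (SE 0.078, adjusted p = 0.0169, exact binomial test). With this scaling and threshold, these 3 members lay apart beyond counting noise, as did 7.83% of all genes tested. The count of Slc6a20b also depends on how reads shared with Slc6a20a were divided, which the test does not model. With a negative binomial exact test that assumes a biological variation of 0.1 between libraries, none of the 3 passed, with an adjusted p of 1 each, and no member did, against 0.115% of all genes. By that test 1 member had an unadjusted p under 0.05. Slc6a7 at 0.61 (adjusted p = 0.0703, exact binomial test), Slc36a1 at 0.24 (adjusted p = 0.0558, exact binomial test) and Slc6a9 at 0.18 (adjusted p = 0.0573, exact binomial test) did not pass. With DESeq2 size factors in place of TMM scaling, Slc36a1 and Slc6a9 passed, with an adjusted p of 0.0356 and 0.0295 in the exact binomial test. The ratios of Slc7a5, at 0.014 (SE 0.077), and Slc3a2, at -0.16 (SE 0.15), did not pass either.

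**Figure D5:**
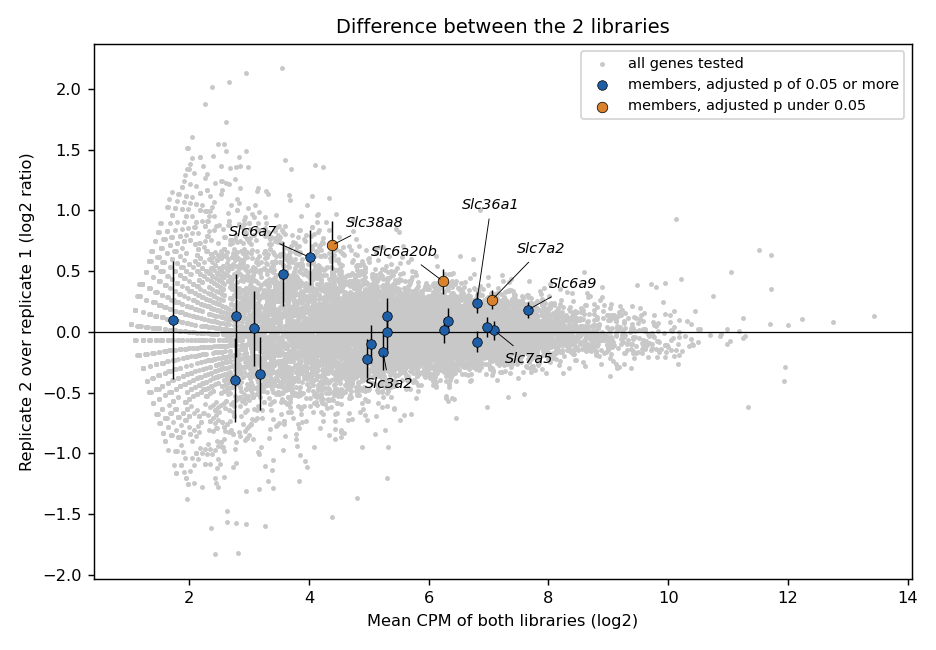
Log2 ratio of replicate 2 over replicate 1 against the mean CPM on a log2 scale, for 22 transporter genes (large points with counting SE) and all 12182 genes tested (grey). The 3 orange genes, Slc38a8, Slc6a20b and Slc7a2, lie above 0 with an adjusted p under 0.05.

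Genes that use or sense the transported amino acids were described by their own lists. All 20 genes of cytosolic aminoacyl-tRNA synthetases, which charge tRNAs with amino acids, were expressed, at a median TPM of 76.4. They ran from Farsb at 250 ± 7.80 and Gars at 178 ± 12.6 down to Farsa at 25.8 ± 1.96 and Yars at 11.5 ± 1.73. In the exact binomial test 1 of the 20, Qars, was higher in replicate 2, with a log2 ratio of 0.20 (adjusted p = 0.0205), and none was lower. Among all genes tested, 4.24% were higher and 3.59% lower. The lowest synthetase gene thus stood below the median TPM of 17.1 of the expressed transporters and the next lowest above it.

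Of 29 genes by which amino acids act on mTORC1 at the lysosome, 28 were expressed and the median TPM was 29.4. The scaffold subunits Lamtor5 and Lamtor2 stood at 310 ± 6.05 and 201 ± 6.11. At the low end were the arginine sensor Castor1, with 9 and 11 counts, and the GTPase gene Rragd, with 2 and 1 counts and not expressed. The lysosomal transporters that act on this machinery, Slc36a1 and Slc38a9, stood apart by -3.33 ± 0.24 on the log2 scale, Slc38a9 minus Slc36a1. The size of this gap depends on the length taken, with mean levels of 8.40 and 48.3 TPM by the longest transcript and 32.9 and 112 CPM with no length. In the exact binomial test Depdc5 and Castor2 were higher in replicate 2 (adjusted p = 0.0301 and 0.0130) and none of 27 was lower. The shares over all genes tested were 4.24% higher and 3.59% lower.

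All 12 genes of the amino acid response were expressed, at a median TPM of 12.1. Atf4 stood at 137 ± 4.03 and Cebpb at 57.4 ± 1.12, above the pseudokinase Trib3 at 3.08 ± 0.65 and the receptor Vldlr at 1.61 ± 0.083. Ddit3 had 52 and 30 counts. None of 11 tested genes passed the exact binomial test between the libraries, against 7.83% of all genes tested. Of 10 genes of glutathione synthesis and cysteine supply, the fate of cystine imported by Slc7a11, 7 were expressed. Gsr stood at 108 ± 9.49 and Gclm at 94.5 ± 8.06, while Ggt1 had 11 and 2 counts and Cbs, which makes cystathionine from homocysteine, had 0 and 1. Gclm and Chac2 were lower in replicate 2 in the exact binomial test, with adjusted p = 0.0426 and 0.0450, and none of 7 was higher. Over all genes tested, 3.59% were lower and 4.24% higher.

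Of 11 other amino acid and peptide transporters outside the 7 families, 7 were expressed. The lysosomal cystine exporter gene Ctns led at 25.1 ± 0.27, followed by the peptide transporter Slc15a4 at 7.10 ± 0.34. Of the vesicular glutamate transporter genes, Slc17a7 had 28 and 22 counts and a TPM of 3.01 and 2.27. Its relatives Slc17a6 and Slc17a8, the peptide transporter gene Slc15a3 and the vesicular GABA transporter gene Slc32a1 had 0 counts. None of the 7 tested passed the exact binomial test between the libraries, against 7.83% of all genes tested. The summed TPM of this list was 52.8 and 53.2, against 610 and 671 for the 63 members.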

How the data were processed

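The authors deposited expected counts for each gene, estimated by RSEM (its version is not stated) after fastp 0.20.0 and STAR 2.7.7a on GRCm38, per the submitters' processing notes. They are scaled neither for depth nor for length, and may be fractional because reads that match several genes are divided. The table has 21 other sample columns, which could not be tied to these libraries and were left unused. Per the labels' protocols, the libraries were strand-specific and amplified by 12 PCR cycles. The annotation release and the strand setting are not stated in the labels.

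The IDs of all 63 members, and 53579 of all 53832, matched GENCODE M21 (GRCm38), from which coordinates and the merged exon length for TPM were taken. Genes without a match have no TPM. For the library comparison, expected counts were rounded, filtered with filterByExpr and scaled with TMM in edgeR 4.0.16, then tested with a two-sided exact binomial test at an adjusted p under 0.05. Log2 ratios used a prior count of 0.5. The test was checked on simulated data with counting noise only, so the check does not cover the wider spread of the real counts. DESeq2 1.42.0 gave the alternative size factors. Common biological variation between the libraries was 7.31%, and counts spread more than counting noise, 3.55 times as much by chi-square, so binomial p-values are too small.

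Members, lists and tests were chosen with earlier results of these data known. Genes named are the members with a mean TPM of at least 10, those that passed the library test, a set fixed by name, those next to the TPM threshold of 1, and the 2 highest and 2 lowest of each list. Other members and genes given with values were chosen after these were seen. The values of 1 member are not reported here by name.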

Additional observations from a re-analysis of the deposited data

How the results depend on the processing

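The count of expressed members was 27 with CPM, 23 with the longest transcript as length, 24 with totals without mitochondrial genes and 17 at a threshold of 5, and 25 to 27 when either replicate was left out, each within 1.5 times of 24. The median member level, 0.58 on the log2(TPM + 1) scale, was 0.82 with CPM, -0.77 with a pseudocount of 0.1 and 2.42 over members with a count in both libraries, and 0.45 to 0.72 without either replicate. By construction this value moves with the scale, the added constant and the removal of low members. Heavy chain minus light chains was -2.59 with CPM and -1.91 with the longest transcript, and -2.17 to -1.97 without either replicate, so it kept its sign. The number of members called between the libraries was 0 under each scaling, without the filter and in the negative binomial test, and 3 with no fold minimum. The log2 ratio of Slc38a7, -0.0038, became 0.016 with DESeq2 size factors and passed no test. Of 28 named levels, 23 moved by more than 1 SD with CPM, 15 with the longest transcript and 14 with totals without mitochondrial genes. CPM is another unit than TPM, so levels move with it by construction. Leaving mitochondrial genes out of the totals multiplies all levels of a library by the same factor. Which levels moved in that setting therefore depends on their SD. Leaving out a library allows no comparison of libraries. No paired analysis was possible because the samples analysed here form 1 group. At this depth, members with a few counts are not told apart from each other.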

Other observations

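Of the 4 symbols left out of the members, Slc7a6os, a gene on the opposite strand beside Slc7a6, had 230 and 273 counts and a TPM of 31.6 and 36.1, against 42 and 45 counts and a TPM of 5.32 and 5.49 for Slc7a6. Slc6a19os had 3 and 2 counts, Slc36a3os had 0 and 1, and Slc36a1os had 0. The merged exons of Slc7a6 were not among those that overlap another gene.

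The members differed in how far their exons overlap genes on the opposite strand. Slc1a1, with 2 and 5 counts, shares 2631 exonic bases with 4430402I18Rik, which had 27 and 38 counts. Slc7a7, with 3 counts in each library, shares 232 bases with Oxa1l, which had 288 and 317 counts. No member shares exonic bases with another gene on its own strand in GENCODE M21.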
